A study of Mus musculus with 20 samples.

Results

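The livers of 5 C57BL/6J mice fed a high-fat diet with fishmeal were set against those of 5 mice fed chow, which is 10 of the 20 liver libraries of the series, chosen by the diet named in each count column and fitted alone. All mice were female, 8 weeks old at the start and 28 weeks old when the liver was taken, and each library came from 1 mouse. The fishmeal mice had first been kept for 10 weeks on a high-fat diet and then ate, for 10 weeks, a high-fat diet in which 50% of the protein came from fishmeal made of salmon by-products. The chow mice (mice 1, 2, 5, 7 and 10) ate a standard low-fat diet. The 2 groups therefore differed in fat, protein source and other contents of the diet at once. The parts of these in a difference cannot be told apart within this comparison. The other 10 mice ate the same kind of high-fat diet with salmon filet (6 mice as labelled) or beef (4 mice as labelled) in place of fishmeal. One of the 6, mouse 31, is labelled salmon filet while its count column is named beef, so which of both diets it ate is uncertain. The fishmeal mice (mice 12, 13, 14, 16 and 20) were also tested against these 10 mice pooled, a comparison that does not use the chow mice. The paper reports more cholesterol in the fishmeal diet than in the salmon filet and beef diets. Protein source and dietary cholesterol therefore differ together in this comparison. Values by mouse are given below in the order of these mouse numbers.

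The liver makes cholesterol from acetyl-CoA through the mevalonate pathway, takes it up from plasma, stores it as esters and turns it into bile acids. Transcription of the enzymes of the pathway is driven by the sterol regulatory element binding protein SREBP2, which is held in the endoplasmic reticulum when sterols are plentiful, and LXR receptors, which bind oxysterols, switch on genes of sterol export and Srebf1. The liver also clears drugs and steroids with cytochrome P450 enzymes and conjugating enzymes, and many of its genes follow the time of day through the circadian clock.

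Counted reads ranged from 44536900 to 66078351 in the chow libraries and from 42717772 to 70266136 in the fishmeal libraries, and protein coding genes took 93.47% to 95.56% of them. Hepatocyte markers (Alb, Apoa1, Cps1 and 5 others) summed to 99080 to 121100 CPM (read counts scaled to library size) in chow and 94370 to 118300 CPM in fishmeal, and none of the 5 adipocyte and 6 exocrine pancreas markers passed the filter on low counts. The library of fishmeal mouse 12 stood apart in Malat1, a nuclear long noncoding RNA, which was at 681 CPM there and at 3440 to 5040 CPM in the other 9 libraries. It was also far from the other 4 fishmeal mice in Mlxipl, Nr1h3, Saa1 and Il1b. The comparison was repeated without that mouse, and counts without it are given below where they changed by over 1.5 times or the count leads a result. In a bulk sample fewer cells of a type and less RNA per cell cannot be told apart.

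Of 13441 protein coding genes tested, 471 (3.5%) passed an adjusted p under 0.05, with 209 higher (1.55%) and 262 lower (1.95%) in fishmeal than in chow. Changes of more than 1.5-fold made up 136 of the higher and 214 of the lower genes, and in 403 of the 471 the 5 fishmeal values did not overlap the 5 chow values. The median log2 fold change of all protein coding genes was -0.00. Without mouse 12, 569 genes passed, 411 of the 471 were among them, and all 471 kept their sign. The count fell to 239 without fishmeal mouse 14, 258 without fishmeal mouse 20 and 311 without fishmeal mouse 13, and to 244 and 266 without chow mice 2 and 7. DESeq2 called 988 genes, of which 525 were higher, or 53.1% against 44.4% in edgeR, and limma on log2(TPM + 1) called 293, of which 30.4% were higher.

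A measure of circadian phase differed between the diets. The difference of log2 CPM between Dbp and Arntl, 2 clock genes that peak at opposite times, ran from -5.57 to -3.66 in the chow mice and from -2.15 to 3.59 in the fishmeal mice, with no overlap, and the labels give no time of collection. With this difference as a covariate, edgeR called 4 protein coding genes (Adgrf1, Slc34a2, Ugt1a9 and Rapgef4, all lower, log2 fold changes from -2.65 to -1.59) while 789 had an unadjusted p under 0.05 and 469 of the 471 kept their sign. Clock state and diet can therefore not be told apart in the comparison with chow. Among the 10 mice on the other high-fat diets the same difference ran from -4.84 to 4.57, a range that includes all 5 fishmeal values, so the comparison with those mice bears on the same genes with the clock spread over both groups.

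Most enzymes of cholesterol synthesis were lower in fishmeal than in chow. Of 20 enzymes on the list, all tested, 18 were called lower and none higher, where 1.95% of all protein coding genes were called lower, and the median log2 fold change was -1.83, beside -0.00 over all protein coding genes. In 15 of the 20 the groups did not overlap (3.33% of all genes did so in this direction). Summed over the 20 enzymes, the CPM values were 3650, 4727, 5741, 4348 and 2855 in the chow mice and 1973, 1632, 1345, 1656 and 1552 in the fishmeal mice. Every fishmeal mouse lay below every chow mouse, and fishmeal mouse 12 was the nearest to chow. Without mouse 12, 17 of the 20 were called lower and the median was -1.92, and leaving out each of the 10 mice in turn left 15 to 17. With the clock covariate none of the 20 was called, 16 had an unadjusted p under 0.05, 19 were lower and the median was -1.66.

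**Figure D1:**
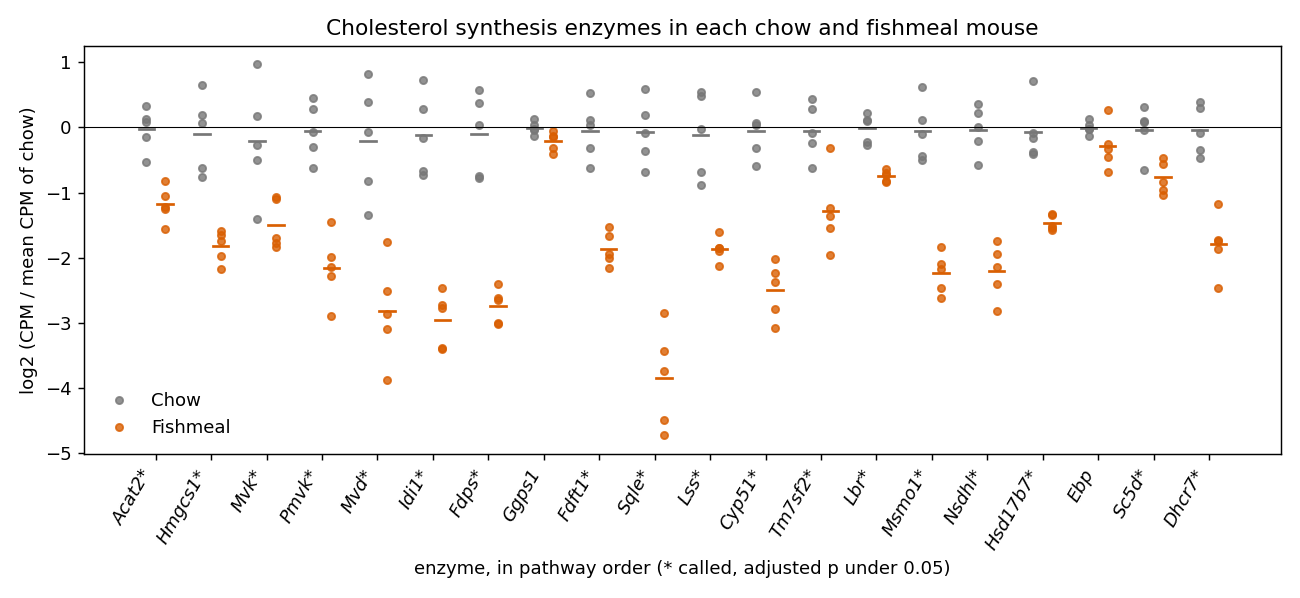
Each of 20 cholesterol synthesis enzymes in pathway order, as log2 of the CPM in a mouse over the mean CPM of the 5 chow mice; grey points are chow mice, orange points fishmeal mice, short bars group means of these log2 values, and an asterisk marks the 18 enzymes called by edgeR. The fishmeal points lie below the chow points in 15 enzymes, farthest for Sqle, while Mvk, Ggps1, Tm7sf2, Ebp and Sc5d overlap.

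Among the first steps, from acetyl-CoA towards mevalonate, Hmgcs1, the HMG-CoA synthase, was at 700, 1230, 1690, 1130 and 636 CPM in chow and 274, 357, 321, 239 and 343 CPM in fishmeal. The fishmeal mice were all below the lowest chow mouse (log2 fold change -1.81 ± 0.25 (SE), adjusted p = 0.00206). Acat2, the thiolase that joins 2 acetyl-CoA, fell by 1.2 on the log2 scale (adjusted p = 0.00285). The Acat2 transcript was 97.7% identical to that of Acat3 over 1477 bases, so that reads of the pair may have been shared.

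Mevalonate is then phosphorylated by Mvk and Pmvk, decarboxylated by Mvd and turned by Idi1 and Fdps into farnesyl diphosphate. Idi1 (chr13:8885501-8892451, plus strand, GRCm38) was at 116, 226, 308, 165 and 111 CPM in chow and 27.9, 33.6, 17.7, 27 and 17.4 CPM in fishmeal. The highest fishmeal mouse was well below the lowest chow mouse (log2 fold change -2.90 ± 0.30 (SE), adjusted p = 0.000332). A processed pseudogene, Gm13502, was 100% identical to Idi1 over 684 bases, so the Idi1 count may hold or lack some of its reads. Fdps (chr3:89093588-89101959, minus strand) was at 11.5, 25.5, 29.4, 20.1 and 11.7 CPM in chow and 3.12, 3.18, 2.42, 3.72 and 2.44 CPM in fishmeal. Its fishmeal values again lay close together and apart from chow (log2 fold change -2.72 ± 0.27 (SE), adjusted p = 0.000253). Mvd fell by 2.66 (adjusted p = 0.00605) and Pmvk by 2.08 on the log2 scale (adjusted p = 0.00113), both without overlap. Mvk overlapped between the groups (log2 fold change -1.45, adjusted p = 0.0448), and its call was lost without any 1 of mice 2, 5, 7, 12, 13, 14, 16 or 20 (adjusted p up to 0.114). Ggps1, which leads into the branch of protein prenylation and not to sterols, was at 15.8, 14.2, 13.1, 14.8 and 14 CPM in chow and 10.8, 11.5, 13.1, 13.9 and 13 CPM in fishmeal and did not pass the test (log2 fold change -0.20, adjusted p = 0.322).

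Squalene is made by Fdft1, epoxidised by Sqle and closed to lanosterol by Lss. Sqle (chr15:59315077-59331192, plus strand) had the largest fold change of the list, with 90.8, 133, 174, 110 and 72.6 CPM in the chow mice and 10.7, 16, 4.38, 8.68 and 5.15 CPM in the fishmeal mice. Mice 14 and 20 were lowest and mouse 13 highest among the fishmeal mice, all far below chow (log2 fold change -3.68 ± 0.36 (SE), adjusted p = 0.000252). Lss was at 75.3, 169, 177, 120 and 66.1 CPM in chow and 39.8, 33.5, 27.7, 32.7 and 33.5 CPM in fishmeal, without overlap (log2 fold change -1.86 ± 0.26 (SE), adjusted p = 0.00224). Fdft1 fell by 1.84 on the log2 scale (adjusted p = 0.000408), and its transcript is 97.4% identical to Gm6781 over 1249 bases and overlaps that of Ctsb on the opposite strand. Of the enzymes that trim lanosterol to cholesterol, Cyp51, the lanosterol demethylase, was at 199, 254, 359, 258 and 164 CPM in chow and 60.7, 52.6, 29.1, 47.7 and 35.8 CPM in fishmeal. These values were apart in every mouse (log2 fold change -2.45 ± 0.24 (SE), adjusted p = 0.000246). The C4-demethylation enzymes Msmo1 and Nsdhl and the reductases Hsd17b7 and Dhcr7 had log2 fold changes of -2.21, -2.17, -1.46 and -1.74, with adjusted p from 0.000253 to 0.00167 and no overlap. Lbr, a sterol reductase that is also the lamin B receptor, changed less (log2 fold change -0.74, adjusted p = 0.00393).

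Other enzymes of the sterol steps had smaller changes or did not pass. Sc5d was lower (log2 fold change -0.75, adjusted p = 0.0373), but its groups overlapped and the call was lost without any 1 of mice 1, 2, 5, 7, 13, 14 or 20. Tm7sf2, a sterol reductase of the same step as Lbr, was also called (log2 fold change -1.18, adjusted p = 0.0426) and lost without any 1 of mice 2, 5, 7, 10, 13, 14, 16 or 20; it overlaps Vps51 on the same strand. Ebp, an isomerase of the sterol ring, did not pass (log2 fold change -0.25, adjusted p = 0.455), and mouse 12, at 371 CPM, was above all chow mice for this gene while the other 4 fishmeal mice were below them. Erg28, which tethers enzymes of the C4-demethylation complex and was not on the list, fell by 0.73 on the log2 scale (adjusted p = 0.00934).

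The start regions of these genes were searched for the sterol regulatory element, written TCACNCCAC, on both strands of RefSeq windows of GRCm38.p6 that run from 250 bases before to 50 bases after the start. A gene could have more than 1 window and was counted once. Of the 20 enzymes, 17 had a window, and 1 of them, Hmgcs1, held these letters, beside 1.44% of 27025 genes with a window. An E-box, CACGTG, was present in 3 of the 17 (Dhcr7, Hsd17b7 and Sc5d). It was present in 8.09% of all genes with a window and in 11.3% of the protein coding genes tested here that had one. The Hmgcs1 window (chr13:119690101-119690400, plus strand) is shown as the only one of the list with the element, which stands in capitals and begins 137 bases upstream of the start:
Hmgcs1: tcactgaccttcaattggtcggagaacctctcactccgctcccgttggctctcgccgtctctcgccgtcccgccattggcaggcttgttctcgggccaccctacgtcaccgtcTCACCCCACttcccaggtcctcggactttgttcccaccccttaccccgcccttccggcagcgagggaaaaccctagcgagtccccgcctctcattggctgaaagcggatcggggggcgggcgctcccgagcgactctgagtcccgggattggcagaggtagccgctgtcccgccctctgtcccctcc
A match is a run of letters and not a measured binding site. The absence of these letters from the windows of the other 16 enzymes concerns only those windows of 300 bases.

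Against the other high-fat diets the cholesterol enzymes were again the main difference. Of 13562 protein coding genes tested, 22 (0.162%) passed, 21 lower (0.155%) and 1 higher (0.00737%), while 510 had an unadjusted p under 0.05, and DESeq2 called 49. Of the 20 cholesterol synthesis enzymes, 12 were among the 21 lower genes, 18 had an unadjusted p under 0.05, and the median log2 fold change was -1.12, beside 0.01 over all protein coding genes. The 12 were Pmvk, Mvd, Idi1, Fdps, Fdft1, Sqle, Lss, Cyp51, Msmo1, Nsdhl, Hsd17b7 and Dhcr7. Sqle was at 26.7 to 75.5 CPM in the 10 other mice, above all 5 fishmeal mice (log2 fold change -2.46 ± 0.31 (SE), adjusted p = 0.00144). Fdps (log2 fold change -2.31 ± 0.27 (SE), adjusted p = 0.000535) and Mvd (log2 fold change -2.02, adjusted p = 0.0254) followed in size. Idi1 was at 42.2 to 131 CPM in the other mice, again above every fishmeal mouse (log2 fold change -1.76 ± 0.28 (SE), adjusted p = 0.0105).

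With the clock covariate, 12 of the 20 enzymes were called here with a median of -1.11, and 26 protein coding genes in all. Against chow the covariate did not overlap between the groups, so the loss of calls there cannot be weighed against this result. Leaving out 1 fishmeal mouse at a time left 9 to 13 of the 20 enzymes called, 13 without mouse 12 and 9 without mouse 14. Over all genes the count was 12 without mouse 14 and 14 without mouse 13. Beside the enzymes, the lower genes included Stard4, Acss2, Acacb, Rdh11, Sgsm1, Tmco6 and Erg28. Of these, Stard4 and Tmco6 were not called without mouse 12 (adjusted p = 0.0529 and 0.0541). Hpgd, which inactivates prostaglandins, was the 1 higher gene (log2 fold change 0.47, adjusted p = 0.0292), and it was no longer called without any 1 of fishmeal mice 12, 14 or 20 or without mouse 31. The fits of salmon filet and of beef against the same chow mice gave medians of -0.50 and -0.73 for the 20 enzymes with mouse 31 as labelled, beside -1.83 for fishmeal; these comparisons share the chow mice. Without mouse 31 the salmon filet median was -0.45, and with it counted as beef the beef median was -0.73.

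Among genes of sterol sensing and uptake 1 was called. Stard4, a carrier of cholesterol within the cell, was lower than in chow (log2 fold change -0.59, adjusted p = 0.0211) and than in the other diets (-0.49, adjusted p = 0.0341). The call against chow was lost without any 1 of mice 2, 13, 14 or 20. The call against the other diets was lost without mouse 12 (log2 fold change -0.50, adjusted p = 0.0529). Stard4 was the only 1 of 12 tested genes of the list that was called, beside 3.5% of all protein coding genes, and the list median was -0.10. Without chow mouse 1, 2 of the 12 were called lower. Srebf2, which encodes SREBP2, and Insig1, its retention partner, had log2 fold changes of -0.68 and -0.76 that did not pass (adjusted p = 0.122 and 0.133).

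**Figure D2:**
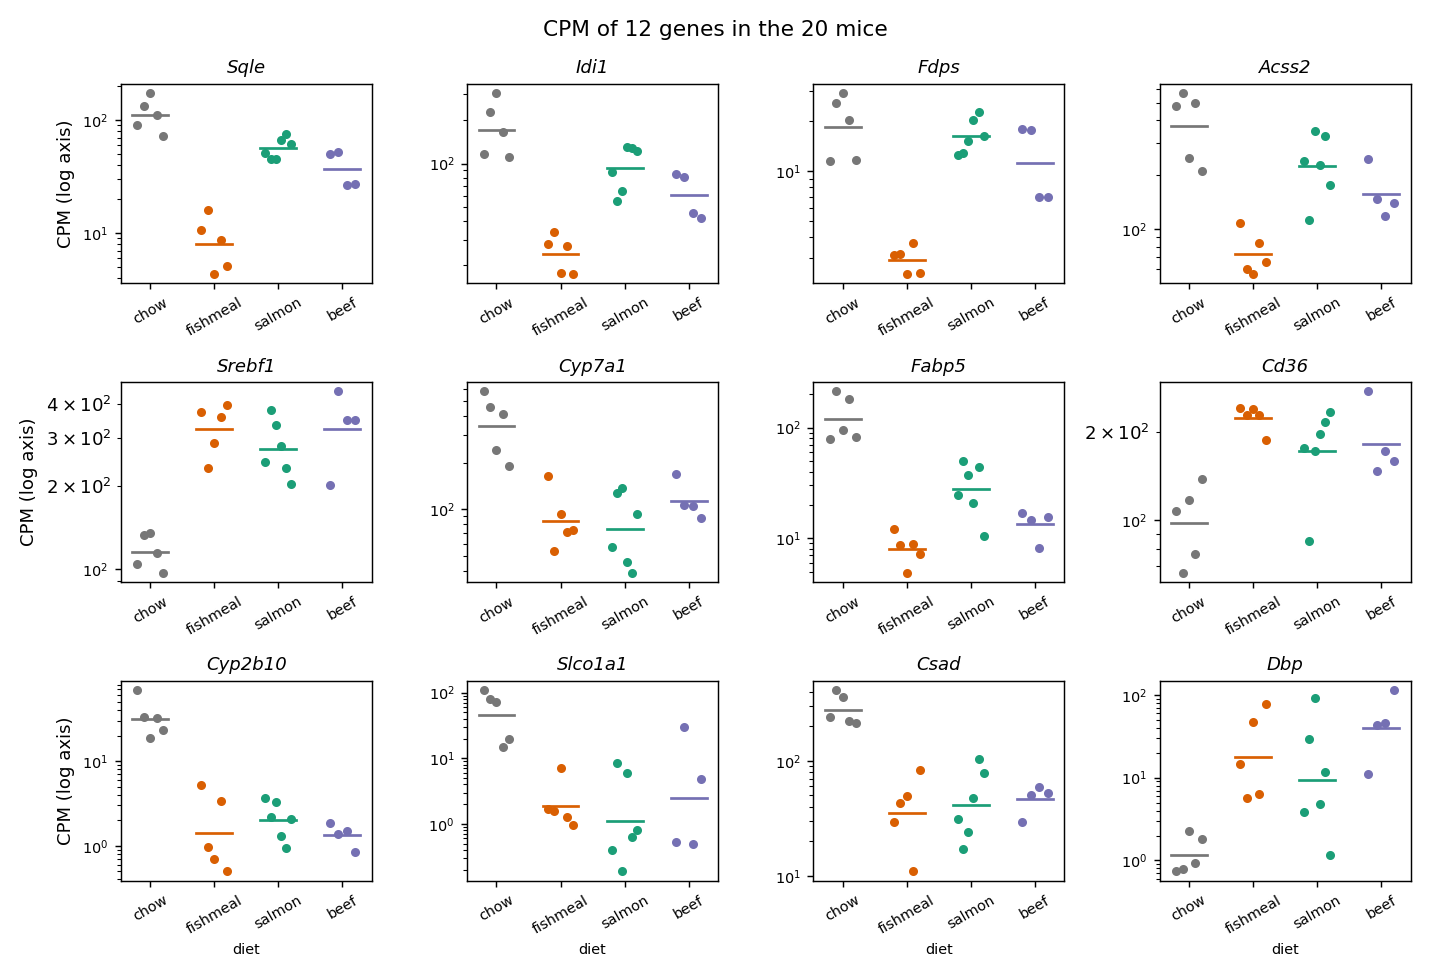
CPM (log axis) of 12 genes in the 20 mice by diet, 1 point per mouse, with the geometric mean of each group as a bar and mouse 31 under salmon as labelled. In Sqle, Idi1 and Fdps the 5 fishmeal points lie below the points of all 3 other diets, whereas in Srebf1, Cyp7a1 and Dbp they lie within the range of the salmon and beef mice and apart from the 5 chow mice.

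Abcg5 and Abcg8, the paired transporters that move sterols into bile, were higher in fishmeal. Abcg5 was at 35.2, 43, 63.8, 46.6 and 59.7 CPM in chow and 87.2, 94.8, 115, 93.6 and 128 CPM in fishmeal. Abcg8 was at 33, 48.9, 69.1, 47.1 and 66.2 CPM in chow and 91, 117, 156, 76.5 and 164 CPM in fishmeal. In both genes every fishmeal mouse was above every chow mouse, with mouse 20 highest (log2 fold changes 1.06, adjusted p = 0.00481, and 1.19, adjusted p = 0.0181). The call of Abcg8 was lost without any 1 of mice 2, 7 or 14, and the 2 genes overlap on opposite strands at their starts on chromosome 17. Pltp, the phospholipid transfer protein, was lower (log2 fold change -1.65, adjusted p = 0.0131). Of 11 genes of the LXR list these 2 were called higher and Pltp lower, with a list median of 0.22. Over all protein coding genes 1.55% were called higher and 1.95% lower. The receptors Nr1h3 and Nr1h2 and the transporters Abca1 and Abcg1 had log2 fold changes between 0.18 and 0.22 and did not pass (adjusted p from 0.441 to 0.682).

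In bile acid synthesis, 2 of 16 enzymes were called, both lower, beside 1.95% of all protein coding genes, and the list median was -0.06. Cyp7a1, the rate-limiting enzyme of the classical pathway (chr4:6265612-6275633, minus strand), was at 576, 456, 243, 410 and 189 CPM in chow and 164, 53.5, 92.7, 71.1 and 73.5 CPM in fishmeal. Mouse 12 was highest among the fishmeal mice and still below the lowest chow mouse (log2 fold change -2.04 ± 0.35 (SE), adjusted p = 0.00691). Cyp27a1, which opens the alternative pathway, was at 307, 344, 372, 344 and 303 CPM in chow and 229, 212, 187, 152 and 193 CPM in fishmeal, without overlap (log2 fold change -0.78, adjusted p = 0.00413). Against the other high-fat diets neither passed (log2 fold changes -0.08 ± 0.32 (SE), adjusted p = 0.999, and -0.18 ± 0.10 (SE), adjusted p = 0.997). Without mouse 16, 2 enzymes of the list were called higher beside the 2 lower ones. Among 13 genes of bile acid transport, Slco1a1 and Abcc4 were called lower, beside the same 1.95%, and the median was 0.01. Slco1a1, an uptake carrier for bile acids and steroid sulphates (chr6:141907282-141946962, minus strand), was at 109, 79.5, 70.9, 15 and 19.8 CPM in chow and 1.67, 1.56, 7.1, 1.3 and 0.948 CPM in fishmeal. It had the largest drop of all genes named here, with mouse 14 above the other fishmeal mice and still below chow (log2 fold change -4.55 ± 0.70 (SE), adjusted p = 0.00407). The call of Abcc4, an export pump (log2 fold change -0.69, adjusted p = 0.0274), was lost without any 1 of mice 2, 5, 7, 10, 13 or 14.

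Fatty acid genes split. Of 21 genes of fatty acid synthesis and desaturation 1 was called higher and 2 lower, with 17 below chow and a median of -0.46. The shares called over all protein coding genes were 1.55% higher and 1.95% lower. Srebf1, the sterol regulatory element binding protein of lipogenesis, was at 104, 133, 135, 114 and 96.8 CPM in chow and 372, 234, 288, 358 and 397 CPM in fishmeal. Every fishmeal mouse was above every chow mouse (log2 fold change 1.5 ± 0.16 (SE), adjusted p = 0.000332). Acss2, which makes acetyl-CoA from acetate, was at 484, 570, 247, 498 and 209 CPM in chow and 108, 60.1, 56.5, 84.3 and 65.8 CPM in fishmeal. It fell without overlap (log2 fold change -2.42 ± 0.29 (SE), adjusted p = 0.000938). Acacb, the acetyl-CoA carboxylase of the mitochondrial surface, fell by 1.59 on the log2 scale (adjusted p = 0.00239). Acss2 and Acacb were also lower than in the other high-fat diets (log2 fold change -1.46, adjusted p = 0.0397, and -1.34, adjusted p = 0.0403), whereas Srebf1 did not pass there (log2 fold change 0.14, adjusted p = 0.997). Mlxipl, Fasn and Scd1, a transcription factor, the synthase and the desaturase of lipogenesis, had log2 fold changes of -0.29, -0.17 and -1.04, none of which passed (adjusted p = 0.547, 0.81 and 0.27). Without mouse 12, which was lowest for Mlxipl, 5 of the 21 were called lower.

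Fabp5, a fatty acid binding protein (chr3:10012548-10016607, plus strand), was at 79.1, 212, 94.7, 181 and 82.8 CPM in the chow mice and 12, 8.75, 4.88, 8.78 and 7.18 CPM in the fishmeal mice. No fishmeal mouse came near the chow range (log2 fold change -3.96 ± 0.34 (SE), adjusted p = 9.27e-05). Against the other high-fat diets, at 8.22 to 50.2 CPM, it did not pass (log2 fold change -1.53, adjusted p = 0.287). Cd36, a fatty acid translocase, was at 108, 66.2, 117, 76.9 and 139 CPM in chow and 242, 229, 240, 229 and 188 CPM in fishmeal and did not overlap (log2 fold change 1.15 ± 0.18 (SE), adjusted p = 0.00488). Fabp2, another binding protein, rose by a similar amount (log2 fold change 1.4, adjusted p = 0.00105). Plin3, a lipid droplet coat protein, was called at a smaller change (log2 fold change 0.52, adjusted p = 0.0409), a call lost without any 1 of mice 1, 2, 5, 7, 10, 12, 13, 14 or 20. These 4 were the called members among 19 genes of lipid droplets, fatty acid binding and uptake, beside 3.5% of all protein coding genes. The median of the 19 was 0.31. Of 30 genes of fatty acid oxidation and ketogenesis, 27 were above chow with a median of 0.28, but none was called higher. Pdk4, the kinase that shuts pyruvate dehydrogenase, was called lower, from 49.9, 48.6, 45, 45.4 and 41.9 CPM in chow to 14, 26.9, 8.68, 12.7 and 14.7 CPM in fishmeal (log2 fold change -1.58 ± 0.23 (SE), adjusted p = 0.0033).

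**Figure D3:**
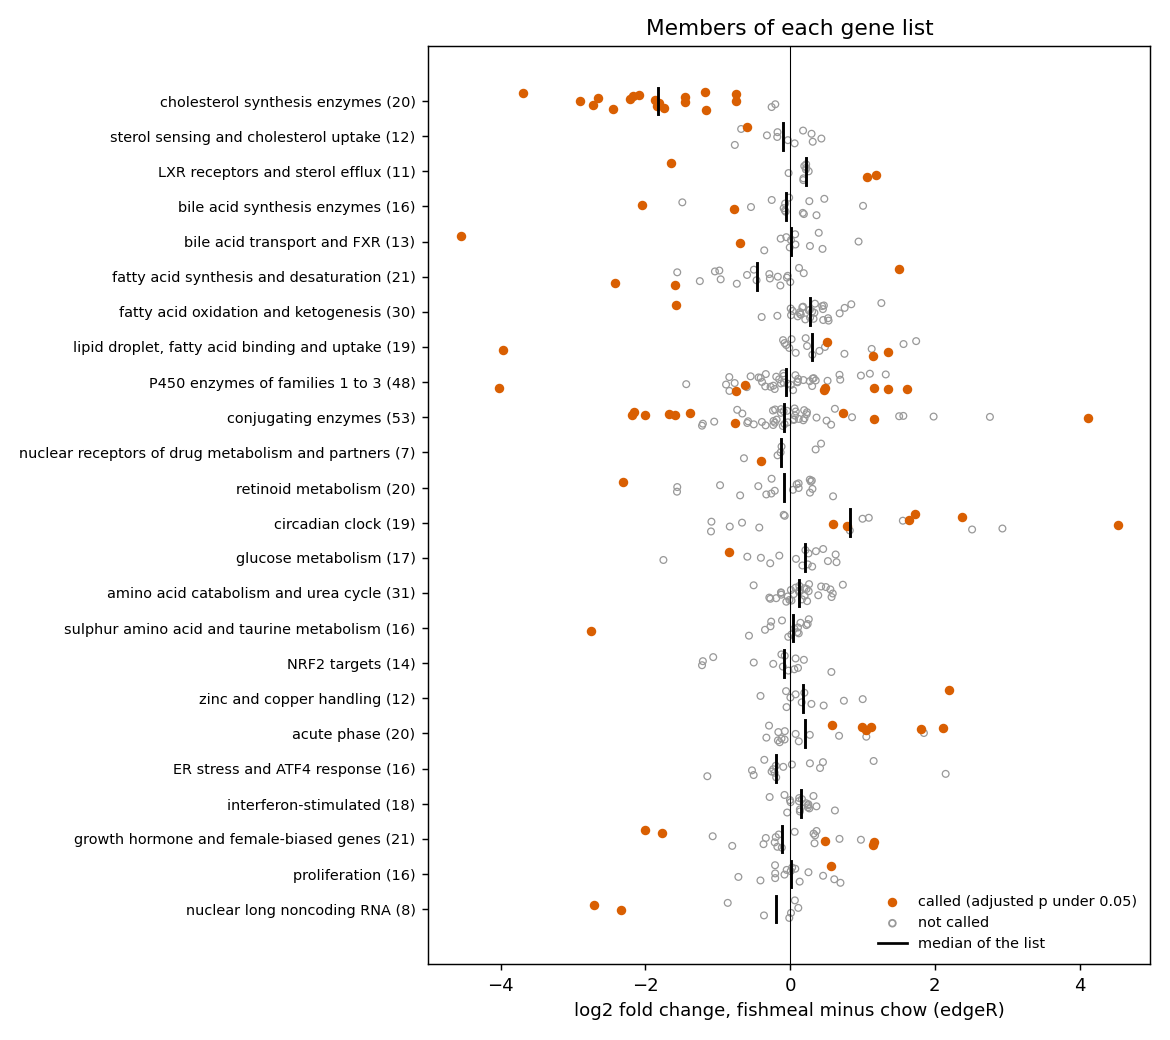
Log2 fold change of fishmeal minus chow (edgeR) for each tested member of 24 gene lists, with the number tested in brackets; filled orange points are called members, open grey points are not, and black bars are list medians. The cholesterol synthesis list has the lowest median, -1.83 with 18 of 20 called, and the clock list the highest, 0.83 with 6 of 19 called.

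Drug metabolism genes changed in both directions. Of 60 cytochrome P450 genes of families 1 to 3, 48 were tested, 5 were called higher and 3 lower, beside 1.55% higher and 1.95% lower over all protein coding genes, and the median was -0.06. Without any 1 of mice 2, 7, 13, 14 or 20, 3 were called higher and 2 lower. Cyp2b10, the classical target of the receptor CAR (chr7:25897620-25926624, plus strand), was at 68.6, 33.2, 18.7, 32 and 23.5 CPM in chow and 5.25, 0.962, 0.7, 3.34 and 0.497 CPM in fishmeal. The fishmeal mice differed among themselves by more than 10-fold, with mouse 12 highest, but all were below chow (log2 fold change -4.03 ± 0.61 (SE), adjusted p = 0.00399). Cyp2a5, the mouse coumarin hydroxylase, was at 281, 167, 224, 193 and 204 CPM in chow and 580, 369, 628, 402 and 764 CPM in fishmeal, a rise without overlap (log2 fold change 1.36 ± 0.21 (SE), adjusted p = 0.00393). Cyp2a22 and Cyp2b13, the latter female-biased in mouse liver, rose as well (log2 fold changes 1.62, adjusted p = 0.00304, and 1.2, adjusted p = 0.0128). Cyp1a2, the caffeine demethylase, was lower (log2 fold change -0.75, adjusted p = 0.0131). Smaller changes of Cyp2b9 (0.48, adjusted p = 0.044), Cyp2a12 (0.46, adjusted p = 0.035) and Cyp2c40 (-0.63, adjusted p = 0.0397) lost their calls without any 1 of mice 2, 5, 7, 10, 13, 14, 16 or 20 for the first pair and mice 1, 2, 5, 7, 13, 14 or 20 for Cyp2c40. Transcripts of Cyp2a5 and Cyp2a4 are 98.2% identical over 1739 bases, those of Cyp2a12 and Cyp2a22 95.4% over 3462 bases, and those of Cyp2c40 and Cyp2c68 98% over 1724 bases, so each of these genes is uncertain apart from its copy. Cyp1a1 and Cyp1b1 were at or below 1.62 CPM in all 10 mice and did not pass (adjusted p = 0.137 and 0.968), and of 7 receptors and partners Ahr alone was called, lower by 0.41 on the log2 scale (adjusted p = 0.0283, lost without any 1 of mice 2, 5, 7, 13, 16 or 20).

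Of 63 conjugating enzymes 53 were tested, of which 3 were called higher and 7 lower, beside 1.55% and 1.95% of all protein coding genes. Their median was -0.09. Ugt1a9, a glucuronosyltransferase (chr1:88070800-88218997, plus strand), was at 138, 115, 90.9, 111 and 103 CPM in chow and 28.4, 22.1, 23.7, 28.5 and 23.2 CPM in fishmeal. Its fishmeal values lay within a narrow band below chow (log2 fold change -2.15 ± 0.13 (SE), adjusted p = 4.85e-06). Ugt1a9 was also 1 of the 4 genes still called with the clock covariate (log2 fold change -1.91 ± 0.23 (SE), adjusted p = 0.0138). Ugt1a10 (log2 fold change -1.68, adjusted p = 0.00493) and Ugt1a5 (-1.38, adjusted p = 0.0343) were lower and Ugt1a6b was higher (0.74, adjusted p = 0.0117). Outside this locus, Gstm4, a glutathione transferase, was called lower (log2 fold change -0.76, adjusted p = 0.0221) and lost without any 1 of mice 2, 7, 13, 14 or 20. Genes of the Ugt1a locus share all exons but the first, so reads of the shared exons cannot be placed in 1 gene, and the call of Ugt1a5 was lost without any 1 of mice 1, 2, 5, 7, 13, 14, 16 or 20. The sulphotransferases Sult3a1 and Sult5a1 fell by 2.00 and 1.59 on the log2 scale (adjusted p = 0.00488 and 0.00769), and Sult1c2, of the same family, rose (log2 fold change 1.2, adjusted p = 0.00793). Sult3a2 was called lower (log2 fold change -2.18, adjusted p = 0.0441) and lost without any 1 of mice 1, 2, 5, 10, 12, 13, 16 or 20. Sult1e1, the oestrogen sulphotransferase (chr5:87575969-87591594, minus strand), had 4, 2, 19, 3 and 11 reads in the chow libraries and 378, 54, 108, 34 and 119 reads in the fishmeal libraries. All fishmeal mice were above all chow mice, mouse 12 by far the most, and at counts this low in chow the fold change depends on a few reads (log2 fold change 4.12 ± 0.75 (SE), adjusted p = 0.0102). Without mouse 12 its log2 fold change was 3.38 (adjusted p = 0.0124).

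Genes that follow growth hormone or sex were called in both directions. Of 21 genes on that list 3 were called higher (Cd36, Cyp2b13 and Cyp2b9) and 2 lower (Socs2 and Sult3a1), with a median of -0.11. Over all protein coding genes 1.55% were called higher and 1.95% lower. Socs2, a feedback inhibitor induced by growth hormone through STAT5 (chr10:95385362-95417180, minus strand), was at 46.6, 38.7, 44.1, 56.8 and 46.7 CPM in chow and 15.1, 16.5, 13.5, 13.5 and 10 CPM in fishmeal. The fishmeal range lay wholly below the chow range (log2 fold change -1.76 ± 0.14 (SE), adjusted p = 6.6e-05). Serpina1e, an alpha-1-antitrypsin gene, was at 181, 367, 902, 58.7 and 136 CPM in chow and 39.8, 24.1, 43.6, 19.5 and 30.6 CPM in fishmeal. The chow mice varied more than 10-fold, yet none reached the fishmeal range (log2 fold change -3.38 ± 0.61 (SE), adjusted p = 0.0101). Serpina1e is 96.5% identical to Serpina1a over 1332 bases, so its reads may be shared within the family.

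The circadian clock genes were the list with the highest median (0.83), and 6 of 19 were called, all higher, where 1.55% of all protein coding genes were called higher. In the same number, 6 of 19, the fishmeal mice lay above the chow mice without overlap, as in 2.98% of all genes. Dbp, a transcription factor of the clock output (chr7:45705088-45710203, plus strand), was at 0.737, 0.779, 2.26, 0.939 and 1.81 CPM in chow and 14.5, 5.61, 47.5, 6.4 and 76.8 CPM in fishmeal. Mice 14 and 20 were highest, but all 5 fishmeal mice were above all chow mice (log2 fold change 4.53 ± 0.76 (SE), adjusted p = 0.00634). Dbp overlaps Sphk2 on the opposite strand, and their transcripts share 541 bases. Tef, of the same family, was at 27, 27.8, 46.8, 24.6 and 28.7 CPM in chow and 57.9, 62.9, 152, 61.5 and 178 CPM in fishmeal, with mice 14 and 20 again highest (log2 fold change 1.72 ± 0.34 (SE), adjusted p = 0.0148). Nr1d2, a repressor of the loop, rose without overlap (log2 fold change 1.65, adjusted p = 0.0148), and so did Cry2, a repressor of CLOCK and BMAL1 (0.79, adjusted p = 0.00794). Hlf (0.59, adjusted p = 0.0316) and Per3 (2.38, adjusted p = 0.0335) were called, but lost without any 1 of mice 2, 5, 7, 10, 13, 14 or 20 for Hlf and mice 1, 2, 7, 10, 14 or 20 for Per3.

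Arntl, which encodes BMAL1, the activator of the loop, was at 39.7, 40.7, 29.7, 41.7 and 33.9 CPM in chow and 20.5, 24.5, 7.06, 28.7 and 6.3 CPM in fishmeal. Mice 14 and 20 were lowest, and although the groups did not overlap the difference did not pass (log2 fold change -1.09, adjusted p = 0.133). Npas2 showed the same 2 mice lowest, at 1.33 and 1.24 CPM against 6.7 to 19.4 CPM in chow. Nr1d1 varied from 3.19 to 126 CPM among the chow mice, and its log2 fold change of 1.56 did not pass (adjusted p = 0.311). Without mouse 12, 8 of the 19 were called higher, and without mice 14 and 20 together, a setting chosen after seeing the data, 2 of 19 were called with a median of 0.55. Against the other high-fat diets none of the 19 was called or had an unadjusted p under 0.05, and the median was -0.04.

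The Per3 window (chr4:151044616-151044915, minus strand) is shown because Per3 was the 1 called clock gene whose window held a D-box, TTATGNAA, the site of DBP, TEF and HLF. One or more copies were held by 2 of 16 clock genes with a window (Per1 and Per3). The share was 3.99% of all genes with a window and 2.82% of the protein coding genes tested that had one. The Per3 window held 2 copies, in capitals, beginning 205 and 158 bases upstream of the start:
Per3: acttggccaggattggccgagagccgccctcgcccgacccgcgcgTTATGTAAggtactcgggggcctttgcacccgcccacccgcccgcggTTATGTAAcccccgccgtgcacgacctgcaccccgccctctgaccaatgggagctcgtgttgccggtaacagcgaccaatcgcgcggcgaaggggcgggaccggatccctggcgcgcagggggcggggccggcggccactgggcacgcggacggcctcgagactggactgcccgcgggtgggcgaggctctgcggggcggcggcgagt
E-boxes were present in windows of 5 of the 16 clock genes (Bhlhe41, Ciart, Cry1, Per1 and Tef). A ROR element was present in 1 (Arntl), beside 0.259% of all genes with a window and 0.151% of the protein coding genes tested that had one.

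**Figure D4:**
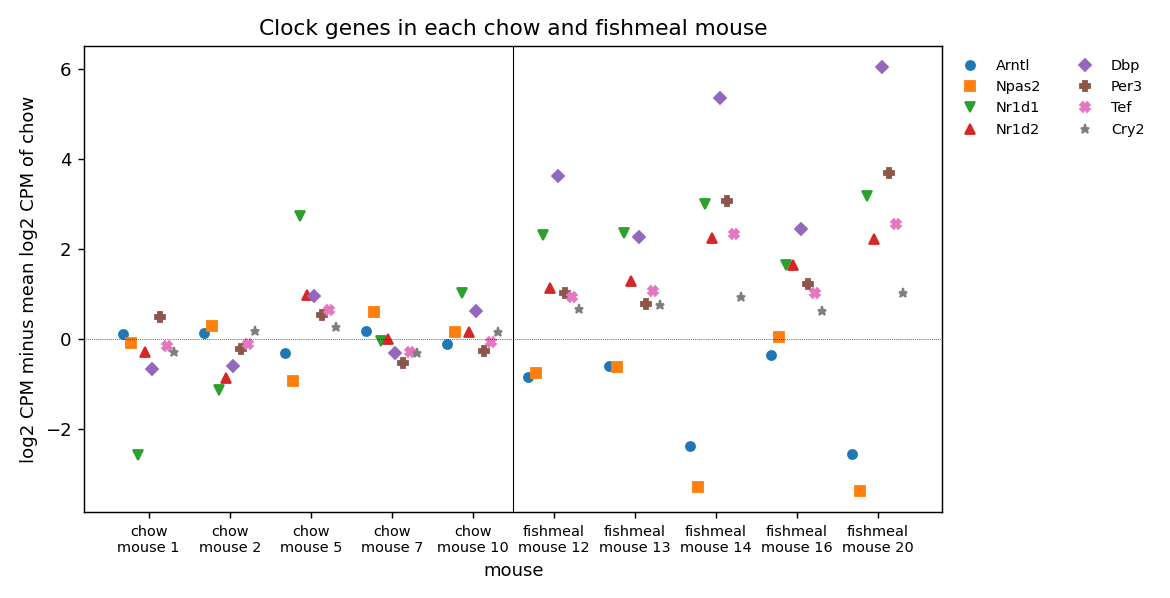
Log2 CPM of 8 clock genes in each of the 10 mice, relative to the mean log2 CPM of the 5 chow mice; each symbol is 1 gene, chow mice stand left of the line and fishmeal mice right. In fishmeal mice 14 and 20 Dbp, Per3 and Tef are highest and Arntl and Npas2 lowest, and the other 3 fishmeal mice lie between these and chow in Dbp, Per3 and Tef.

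Acute phase genes rose in part. Of 20 genes 6 were called higher and none lower, beside 1.55% and 1.95% of all protein coding genes, and the median was 0.20. Saa1, a serum amyloid A protein, was at 18.7, 26.1, 18.9, 16.5 and 59.1 CPM in chow and 125, 84.3, 91.8, 93 and 95.8 CPM in fishmeal. Its neighbour Saa2 was at 10.8, 14.8, 12.3, 11 and 34.7 CPM in chow and 102, 43.7, 71.6, 69.3 and 73.5 CPM in fishmeal. Chow mouse 10 was the highest chow mouse for both genes, below every fishmeal mouse (log2 fold changes 1.81, adjusted p = 0.00829, and 2.11, adjusted p = 0.00474). The 2 transcripts are 96.7% identical over 2448 bases, so their reads may be shared. Saa3 and Saa4 rose by 1.11 and 0.99 on the log2 scale (adjusted p = 0.00695 and 0.00613). Orm3 and Steap4 were called close to the threshold (adjusted p = 0.0496 and 0.0485), and both calls were lost without mouse 12, among others. With all 4 diets fitted together 1 of the 20 was called, as it was without mice 14 and 20 together. None of the 20 was called against the other high-fat diets, where the median was -0.22. Mouse 23 of the salmon filet group was at 1400 CPM for Saa1 and 1110 CPM for Saa2, though at 3.59 CPM for Saa3. The median for Saa1 in the other high-fat diets was 91.3 CPM. That comparison was not repeated without mouse 23.

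Single genes of other metabolic lists changed while most of their list did not pass, where 3.5% of all protein coding genes were called. Csad, the decarboxylase of taurine synthesis (chr15:102176999-102204724, minus strand), was at 241, 411, 360, 221 and 214 CPM in chow and 29.3, 42.8, 49.7, 10.9 and 82.8 CPM in fishmeal. Mouse 16 was lowest and mouse 20 highest in fishmeal, all below chow (log2 fold change -2.75 ± 0.43 (SE), adjusted p = 0.00434). It was the only 1 of 16 genes of sulphur amino acid and taurine metabolism called, with a list median of 0.04 (3 were called lower without mouse 12), and it did not pass against the other high-fat diets (log2 fold change -0.19, adjusted p = 0.997). Rdh11, a retinol dehydrogenase and the only 1 of 20 retinoid genes called, was at 159, 204, 167, 201 and 107 CPM in chow and 46.2, 29.6, 22.9, 41.4 and 29.1 CPM in fishmeal. It was lower than in chow (log2 fold change -2.31 ± 0.22 (SE), adjusted p = 0.00021) and than in the other diets (log2 fold change -1.30, adjusted p = 0.0496), and 2 or 3 genes of the retinoid list were called lower or higher without any 1 of mice 1, 10, 12 or 16. Slc39a5, a zinc importer, rose from 0.18, 0.547, 0.522, 0.491 and 0.687 CPM in chow to 2.82, 2.44, 2.08, 1.34 and 2.46 CPM in fishmeal and was the only 1 of 12 genes of zinc and copper handling called (log2 fold change 2.20 ± 0.31 (SE), adjusted p = 0.00244). Slc39a5 did not pass against the other high-fat diets (log2 fold change -0.51, adjusted p = 0.997), with means of 2.80 CPM on salmon filet and 3.78 CPM on beef. Pfkfb3, of glycolytic control, was the only 1 of 17 glucose genes called (log2 fold change -0.85, adjusted p = 0.0375), a call lost without any 1 of mice 1, 2, 5, 7, 12, 13, 14 or 16, while 1 other gene of the list was called higher without mouse 12. Tk1 was the only 1 of 16 proliferation genes called (log2 fold change 0.57, adjusted p = 0.0352), lost without any 1 of mice 1, 2, 5, 10, 13, 14 or 20.

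No gene was called in 4 further lists in edgeR. These were amino acid catabolism and the urea cycle (31 tested, median 0.13, 5 with an unadjusted p under 0.05), NRF2 targets (14 tested, median -0.09, 5), the ER stress and ATF4 response (16 tested, median -0.19, 6) and interferon-stimulated genes (18 tested, median 0.15, 3). Without mouse 12, 1 gene was called lower in each of the amino acid and NRF2 lists, and without any 1 of mice 1, 10, 13 or 16 there was 1 call in each of the same lists. Without mouse 5 or 16 there was 1 call higher in the ER stress list. A p that misses the threshold does not show that these genes were alike in both groups.

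Outside the lists, the genes in this paragraph were picked for large changes that held without mouse 12 and for groups that did not overlap. Slc34a2, a sodium phosphate cotransporter (chr5:53038081-53071664, plus strand), was at 22.6, 21.5, 17, 25.2 and 26.3 CPM in chow and 2.43, 3.07, 2.43, 4.24 and 2.57 CPM in fishmeal. It was lower in fishmeal (log2 fold change -2.93 ± 0.18 (SE), adjusted p = 4.85e-06). With the clock covariate it was called as well (log2 fold change -2.47 ± 0.28 (SE), adjusted p = 0.0123). Kcnk10, a leak potassium channel (chr12:98429437-98578310, minus strand), was at 0.632, 0.58, 0.852, 0.32 and 1.02 CPM in chow and 4.92, 4.62, 5.36, 3.29 and 6.19 CPM in fishmeal, a rise in every mouse (log2 fold change 2.83 ± 0.27 (SE), adjusted p = 0.00022). Sema5b, a semaphorin, rose by 2.92 on the log2 scale (adjusted p = 0.00239), Adora1, an adenosine receptor, by 2.16 (0.00105), and Hao2, a peroxisomal hydroxyacid oxidase, by 1.77 (0.00224). Extl1, a glycosyltransferase of the exostosin family, rose by 1.91 (adjusted p = 0.000253), and Slc22a29, an organic anion transporter with a 96.8% identical neighbour, Slc22a27, by 2.16 (0.000206). Sytl5, a vesicle tethering protein, Tuba8, an alpha tubulin, and Nfe2, a transcription factor of blood cells, fell by 2.55, 2.79 and 3.40 on the log2 scale (adjusted p = 0.00036, 0.000786 and 0.0037). Ntrk2, a neurotrophin receptor, was called higher (log2 fold change 2.32, adjusted p = 0.0316) and lost without any 1 of mice 1, 7, 10, 14 or 20. Spry4, an inhibitor of receptor tyrosine kinase signalling, and Aqp4, a water channel, were higher (log2 fold change 1.83, adjusted p = 0.000164, and 1.80, adjusted p = 0.0169), and Aqp4 was lost without mouse 2 or 14. Gm3839 (log2 fold change -3.94, adjusted p = 0.00506) is 99.1% identical to Gapdh, so its reads may be those of Gapdh.

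Of 8 nuclear long noncoding RNAs tested, the imprinted neighbours Meg3 and Rian were called lower, where 1.95% of all protein coding genes were called lower. The count was again 2 of 8 without mouse 12, which had the lowest Meg3 (0.281 CPM) and Rian (0.0991 CPM). Meg3 (chr12:109541001-109571726, plus strand) was at 3.62, 3.94, 9.1, 2.88 and 1.96 CPM in chow and 0.281, 0.962, 0.883, 0.904 and 1.3 CPM in fishmeal. Chow mouse 5 was highest, and no fishmeal mouse reached the chow range (log2 fold change -2.33 ± 0.43 (SE), adjusted p = 0.0115). Rian fell by 2.71 on the log2 scale (adjusted p = 0.00573), also without overlap. Malat1 did not pass with mouse 12 included (log2 fold change 0.01, adjusted p = 0.992) or without that mouse. The other fishmeal mice were at 4400 to 5040 CPM, above the chow mice at 3440 to 4340 CPM.

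Markers of B cells were lower in their sum, and 2 of them passed, where 1.95% of all protein coding genes were called lower. Summed over 8 B cell markers the CPM values were 10.1, 16.2, 7.98, 19 and 8.21 in the chow mice and 4.64, 7.31, 4.08, 4.68 and 6.91 in the fishmeal mice. The sums did not overlap, all 8 genes had negative log2 fold changes with a median of -1.23, and all 8 had an unadjusted p under 0.05. Of the 8, Ms4a1 and Blk were called (log2 fold change -1.59, adjusted p = 0.021, and -1.60, adjusted p = 0.0467), Ms4a1 lost without any 1 of mice 2, 14 or 20 and Blk without any 1 of mice 1, 2, 5, 7, 12, 14, 16 or 20, so that neither was called without mice 2, 14 or 20 in turn. T cell markers had a median of -0.80, and none of 10 was called although 6 had a p under 0.05 before adjustment. Their summed CPM ranged from 5.02 to 7.87 in chow and from 3.04 to 5.20 in fishmeal, which overlap. NK cell markers had a median of -0.35 with none of 9 called. Against the other high-fat diets none of the B, T and NK cell markers was called, and the medians were -0.17, 0.15 and 0.16.

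The sums of the other cell types overlapped between the groups. Kupffer cell and macrophage markers (12 tested), monocyte and antigen presentation markers (10), neutrophil markers (2 of 8 passed the filter), stellate cell and fibroblast markers (10) and hepatocyte markers (8) held no called gene, with medians of -0.11, 0.01, -0.53, 0.26 and -0.03. For the lists that follow, the shares called over all protein coding genes were 1.55% higher and 1.95% lower. Of 10 sinusoidal endothelial markers Clec4g and Fcgr2b were called lower (log2 fold change -0.37, adjusted p = 0.0316, and -0.42, adjusted p = 0.0487) with a median of -0.33. Clec4g lost its call without any 1 of mice 2, 5, 7, 10, 14, 16 or 20, and Fcgr2b without any 1 of the 10 mice. Sox9 was the 1 cholangiocyte gene of 6 called (log2 fold change -0.81, adjusted p = 0.00932). Alas2, which makes haem in red cells, was the 1 of 6 red blood cell genes called (log2 fold change 0.74, adjusted p = 0.0196), lost without chow mouse 2 or fishmeal mouse 14. Il1b and Col1a1, markers of inflammation and fibrosis, did not pass (adjusted p = 0.31 and 0.74). Whether the share of any cell type had a part in the results above was not tested.

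**Figure D5:**
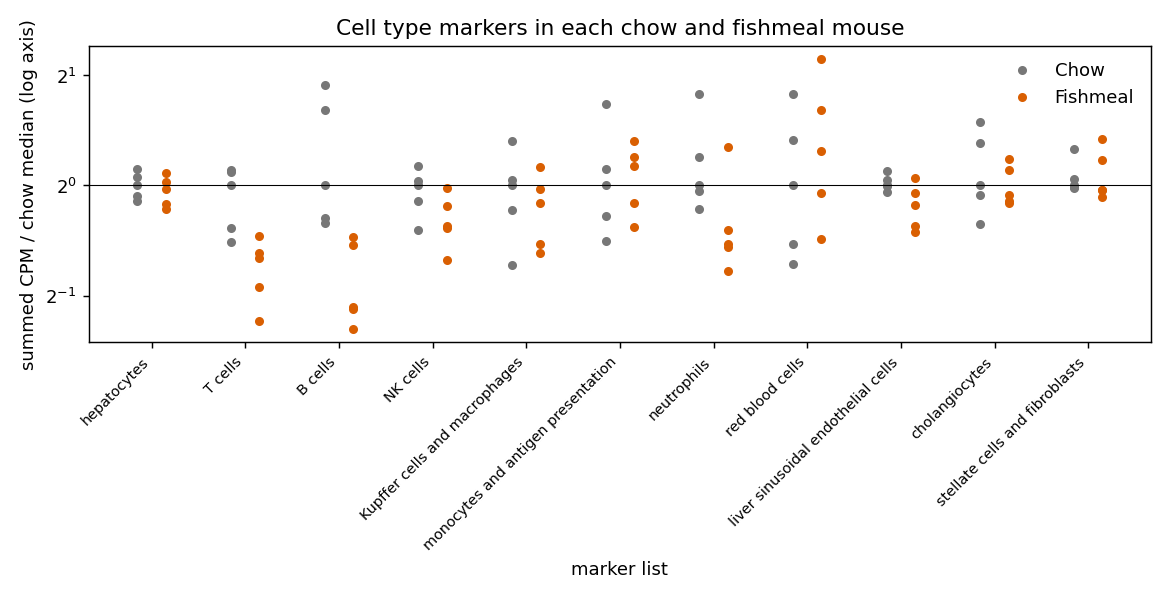
Summed CPM of the tested markers of 11 cell types in each chow mouse (grey) and fishmeal mouse (orange), divided by the chow median (log axis). The 5 fishmeal sums lie below the 5 chow sums for B cells, while the groups overlap in the other 10 lists.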

How the data were processed

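Liver RNA of 20 mice was sequenced with a stranded mRNA kit, and the 5 fishmeal and 5 chow libraries were fitted alone. The authors trimmed reads with BBDuk, aligned them with HISAT2 (version 1.2.1) and counted them per gene with featureCounts (version 1.4.6-p1). The submitters' processing notes name the build GRCh38 although the animals were mice, and strand and multimapping settings of the counting are not given in the sources used here. The deposited counts are whole reads per gene and were used for the main test. The TPM values deposited by the authors were used only in an alternative. Of 55487 gene identifiers 55141 matched a symbol in the reference, and 0 value columns belonged to no sample. Positions are from GENCODE M21 (GRCm38) and promoter windows from RefSeq (GRCm38.p6), since the identifiers are mouse genes.

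Genes were filtered with filterByExpr (minimum count 10), scaled by TMM and tested with the quasi-likelihood F-test of edgeR (version 4.0.16, R 4.3.3), with Benjamini-Hochberg adjustment over all 16471 genes tested, and a gene was called at an adjusted p under 0.05. Counts of genes refer to protein coding genes. Beside these, 85 genes of other types were called, 29 higher and 56 lower. A standard error is the log2 fold change divided by the square root of F. CPM values use TMM effective library sizes over all 20 libraries, so they are not per length and are compared only between mice. Transcripts were compared with BLAST (version 2.17.0), reporting identity of at least 95% over at least 200 bases. The scripts were tested on simulated data.

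Gene lists and the genes compared were chosen with earlier results of these data known. A few genes are not reported here and were left out of the lists and figures, but not of the fits or of counts over all genes. The genes named were, by rule, the 15 with the largest fold change in each direction among protein coding genes called with and without mouse 12 whose groups did not overlap (mean CPM 1 or more), up to 4 called members of each list, genes that the study's text names, and up to 10 genes called against the other diets. Members and other called genes beyond these counts were named after their values were seen. No 2 libraries of a group agreed within sampling noise. Each library was 1 mouse, and p-values measure the spread between these mice. Alternatives were DESeq2 (version 1.42.0), other scaling and filters, all 4 diets fitted together, limma (version 3.58.1) on log2 TPM, GC and length offsets, the clock covariate and leaving out each mouse. Leaving out mice 14 and 20 together, mouse 35, other placings of mouse 31 against chow, and the clock covariate against the other diets were chosen after seeing the data. Mouse 31 is labelled salmon filet but its column name says beef, so the comparison with the other high-fat diets was repeated without it.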

Additional observations from a re-analysis of the deposited data

Results flagged for a closer look

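Among 238 groups of 5 values, 1 mouse lay far from the other 4 in 19 (gap over range above 0.71), and chance alone marks about 1 in 20 groups. Of these, 5 were in fishmeal mouse 12, which was far from its group for Malat1 (681 CPM), Mlxipl (213 CPM), Nr1h3 (113 CPM), Saa1 (125 CPM) and Il1b (1.2 CPM). Fishmeal mouse 14 was far for Slco1a1 (7.1 CPM) and Ugt1a10 (0.45 CPM), mouse 20 for Cd36 (188 CPM) and mouse 13 for Blk (0.334 CPM). Chow mouse 5 was far for Hsd17b7 (173 CPM), Sult3a1 (447 CPM), Sult3a2 (50.3 CPM), Ugt1a10 (1.67 CPM), Tef (46.8 CPM) and Meg3 (9.1 CPM). Chow mouse 10 was far for Saa1 (59.1 CPM) and Saa2 (34.7 CPM), and chow mouse 1 for Abcc4 (5.99 CPM) and Il1b (4.48 CPM).

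The fishmeal mice differed from the mice on the other high-fat diets, by edgeR's test of that difference, in 22 genes. Of the cholesterol synthesis enzymes these included, as log2 fold change, Sqle (-2.46), Fdps (-2.31), Mvd (-2.02), Idi1 (-1.76), Nsdhl (-1.41), Cyp51 (-1.41), Msmo1 (-1.33), Dhcr7 (-1.3), Lss (-1.23), Fdft1 (-1.12), Pmvk (-1.11) and Hsd17b7 (-0.88). Others were Acss2 (-1.46), Acacb (-1.34), Rdh11 (-1.3), Sgsm1 (-0.93), Tmco6 (-0.78), Stard4 (-0.49), Erg28 (-0.46) and, as the 1 higher gene, Hpgd (0.47).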

How the results depend on the processing

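No paired analysis was possible because the labels give the mice of the groups no shared replicate numbers. Against chow 471 genes were called (209 higher, 262 lower). In their own totals, DESeq2 called 988 (525 and 463), which held 469 of the 471, GC and length offsets 907 (473 and 434), which held 463 of them, the clock covariate 4 (0 and 4), and the fit without mice 14 and 20 together, chosen after seeing the data, 115 (42 and 73). With limma 293 genes were called on log2(TPM + 1) and 289 on log2(TPM + 0.1), 89 of them higher in each, and the fit of all 4 diets called 346 higher of 689. Leaving out 1 mouse at a time gave 239 to 569 genes (97 to 283 higher, 142 to 286 lower). DESeq2 size factors, upper quartile factors, no filter, at least 10 counts in every library, and protein coding genes alone gave 449 to 507.

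Against the other high-fat diets 22 genes were called (1 higher, 21 lower), and DESeq2 called 49 in all (4 and 45). Leaving out 1 fishmeal mouse gave 12 to 23 (0 to 1 higher, 12 to 23 lower). Without mouse 31 there were 15 and 0 were higher. With the clock covariate 469 of the 471 kept their direction against chow, and Per3 turned to a log2 fold change of -0.35 (adjusted p = 0.982). Of the named genes not called against chow, Arntl, Npas2, Nr1d1, Ebp, Abca1, Abcg1, Cyp1b1 and Malat1 also took the opposite sign with it. So did Col1a1 and Cyp1b1 without mouse 12 and Cyp1b1 without mouse 1, and all were uncalled there too. Arntl is itself a part of the covariate, so its sign with it is not an independent result, and Per3, Npas2 and Nr1d1 are clock genes as well. The clock covariate overlapped in no mouse between fishmeal and chow, so that fit has little power to separate them by its construction. The causes of the other shifts were not tested. With 5 mice a group and no collection time, the data cannot separate clock phase from diet against chow, and genes of few reads, such as Sult1e1, Rian and Cyp1a1, are limited by depth.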
